A study of Homo sapiens with 24 samples.

Results

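The lysosome and autophagy genes described here are 47 genes chosen by symbol: 3 transcription factors of the MiT/TFE family, 3 lysosomal membrane proteins, 6 cathepsins, 7 other lysosomal hydrolases and their cofactors, 6 subunits of the proton pump, 4 ATG8 proteins, 12 genes of autophagy initiation and conjugation, 2 nutrient sensors and 4 autophagy receptors. All 47 were found among the 19475 genes of the gene count table, and all 47 passed the filter on low counts in each of 4 human cell lines. The lines were A549 (lung adenocarcinoma), H1299 (lung carcinoma), K562 (erythroleukaemia) and THP-1 (monocytic leukaemia), each with 3 libraries labelled control and 3 labelled CBX7 knock-down. CBX7 is a chromobox subunit of Polycomb repressive complex PRC1. The library protocol names lentiviral shCtrl and shCBX7, whereas the treatment label of the samples reads siCBX7. Both arms of a line therefore carry a lentiviral construct by the protocol, and the labels do not say whether the 3 libraries of a group came from separate cultures, so the p-values below measure only the spread between these libraries.

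Lysosomes are acidic organelles in which cathepsins cleave proteins and glycosidases and lipases break down sugars and lipids, at a pH that the vacuolar proton pump sets. In macroautophagy a membrane marked by lipid-bound ATG8 proteins closes around cargo that receptors such as SQSTM1 and OPTN hold, and then fuses with a lysosome. TFEB, TFE3 and MITF bind E-box motifs of the CLEAR type in the promoters of many of these genes, and when nutrients are plentiful mTORC1, recruited through Rag GTPases, keeps TFEB and TFE3 in the cytoplasm.

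CBX7 went against the labels in every line. In A549 it stood at 6.45, 5.98 and 5.57 CPM (library-scaled counts-per-million) in the libraries labelled control and at 52.4, 49.9 and 50.4 CPM in those labelled knockdown, and its log2 fold change was 3.08 there. It was 1.20 in THP-1, 1.51 in K562 and 3.62 in H1299. The groups are therefore called by their labels throughout, and every direction below is that of the libraries labelled knockdown against those labelled control. Library totals ran from 71087023 to 132499841 estimated counts, and the lines were checked against their markers. In K562, 13 of 13 erythroid markers had a mean of at least 1 CPM, keratins KRT8 and KRT18 led the epithelial list in A549, and 10 of 14 monocyte and macrophage markers had a mean of at least 1 CPM in the THP-1 controls. The epithelial sum was also 752 to 817 CPM in the K562 controls and 1574 to 1635 CPM in the H1299 controls. Detection of these markers alone therefore does not set A549 apart, and H1299 had no list of its own. Alveolar and airway markers were near 0 in all lines (summed level at most 2.74 CPM). Some marker lists moved with the arms. In A549 the summed level of 8 fibroblast markers lay between 21.8 and 22.6 CPM under the control label and between 82.0 and 361 CPM under the knockdown label, and all 8 were called higher. That of 9 epithelial markers lay between 10549 and 10729 CPM under the control label and between 5667 and 5904 CPM under the knockdown label. Of these 9, however, 3 were called higher and 4 lower, with a median log2 fold change of 0.30, so the sum does not speak for the list. In K562 the fibroblast list stood at 11.1 to 17.8 against 30.4 to 70.1 CPM, and 12 of 13 erythroid markers were called higher. The monocyte and macrophage list stood there at 161 to 166 against 85.8 to 92.6 CPM, with 4 of 7 tested markers called lower and none higher. The K562 epithelial list stood at 752 to 817 against 505 to 535 CPM, and the lymphoid list at 29.5 to 31.6 against 15.0 to 18.2 CPM. Of the 9 epithelial markers 2 were called higher and 3 lower there, and of 5 tested lymphoid markers none higher and 2 lower. In H1299 the fibroblast list stood at 3.76 to 4.44 against 8.60 to 10.4 CPM, the epithelial list at 1574 to 1635 against 747 to 767 CPM and the neural list at 22.5 to 26.0 against 9.29 to 10.2 CPM. Of 7 tested fibroblast markers 5 were called higher there and none lower. Of 7 tested epithelial markers 1 was called higher and 2 lower, and of 4 tested neural markers 1 and 2. The neural list of A549 stood at 26.2 to 27.1 against 48.9 to 52.6 CPM. In THP-1, 5 of 12 tested monocyte and macrophage markers were called higher and 1 lower, with summed levels of 1183 to 1260 against 1172 to 1302 CPM. The part of these shifts in the results below was not tested. In bulk RNA, fewer cells of a type and less RNA per cell cannot be told apart.

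The promoters were searched for the E-box core CACGTG and for the longer palindrome TCACGTGA, which contains it; both read the same on either strand. RefSeq promoter entries (GRCh38.p14, 250 bases before to 50 after the gene start) were matched for 34 of the 47 members. CACGTG was present in 9 of these 34 promoters (26.5%), against 22.5% of 120 other lysosome, autophagy and mTORC1 genes and 8.77% of all 27305 genes with an entry, and TCACGTGA in 6 of 34 (17.6%), against 9.17% and 1.18%. A match describes letters and does not show that a factor binds. The windows below are 30 bases long, and they show 1 match in each of the 9 genes, with the motif in capitals, so that the matched letters can be read.
NEU1, chr6:31862930-31862959, minus strand: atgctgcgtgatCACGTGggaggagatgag
CTSD, chr11:1763957-1763986, minus strand: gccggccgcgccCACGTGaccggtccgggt
CTSA, chr20:45891298-45891327, plus strand: ggcgccggagtTCACGTGActcgtacacat
LAMP1, chr13:113297226-113297255, plus strand: cgcggcgcagcTCACGTGAcaagcgctgcc
MCOLN1, chr19:7522571-7522600, plus strand: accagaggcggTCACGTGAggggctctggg
GAA, chr17:80101493-80101522, plus strand: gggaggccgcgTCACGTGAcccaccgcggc
ATP6V0D1, chr16:67481199-67481228, minus strand: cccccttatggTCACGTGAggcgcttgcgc
ATG3, chr3:112561940-112561969, minus strand: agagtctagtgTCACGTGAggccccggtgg
ATG14, chr14:55411834-55411863, minus strand: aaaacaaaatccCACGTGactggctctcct
In capitals, NEU1, CTSD and ATG14 hold the 6-letter core alone, and the other genes hold the 8-letter palindrome. LAMP1 held 6 matches in its entry, the most among the members.

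The members did not move one way. By edgeR's quasi-likelihood test with Benjamini-Hochberg adjustment over all genes (adjusted p under 0.05), 20 members rose and 10 fell in A549, 10 rose and 23 fell in H1299, 13 rose and 18 fell in K562, and 13 rose and 1 fell in THP-1. Most genes of the first 3 lines passed this test, so these counts have to be read against it. In A549 55.6% of 14980 genes tested were called, 27.2% higher and 28.4% lower, and of the members 42.6% were called higher and 21.3% lower. In H1299 68.9% of 14621 genes were called, 33.4% higher and 35.5% lower, and of the members 21.3% and 48.9%. In K562 56.5% of 13876 genes were called, 28.9% higher and 27.5% lower, and of the members 27.7% and 38.3%. In THP-1 10.2% of 14259 genes were called, 6.3% higher and 3.93% lower, and of the members 27.7% and 2.13%. The share called in either direction was thus near that of all genes in A549, H1299 and K562, and in THP-1 it was 29.8% against 10.2%. The counts by role given below have to be read against these same shares of all genes. Labelled knockdown replicate 2 stood apart in THP-1: chi-square per degree of freedom was 69.5 and 67.7 against the other 2 libraries of its arm, and 8.27 between those. Without it 23.1% of 14379 genes were called, 12.1% of all higher, and of the members 38.3% were called, 16 higher and 2 lower. Leaving out any other THP-1 library gave 3.89 to 5.91% of all genes and 5 to 11 members. The members' median log2 fold change was 0.15 in THP-1, 0.08 in A549, -0.07 in K562 and -0.19 in H1299. That of all genes tested lay between -0.00 and 0.01.

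**Figure D1:**
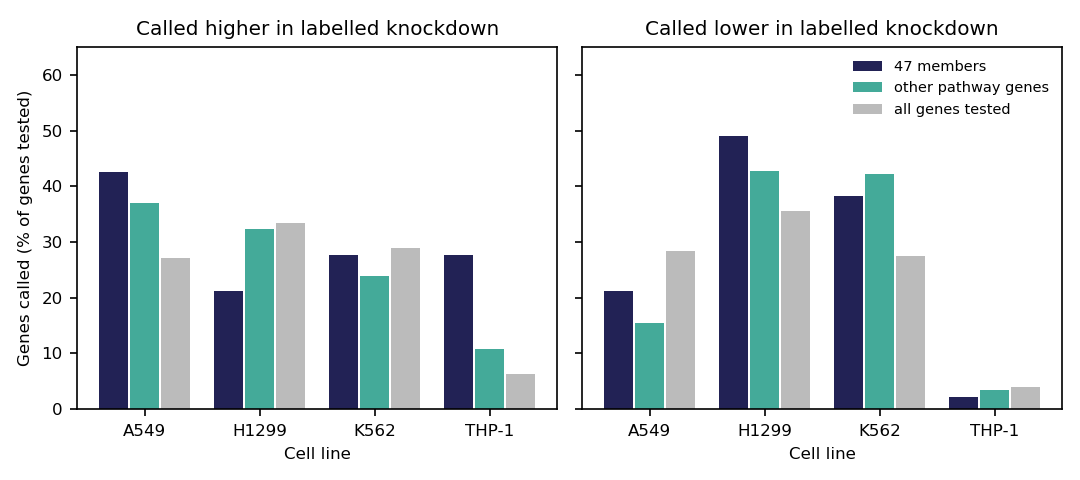
Percent of genes called higher (left) or lower (right) in the libraries labelled knockdown, for the 47 members, the other pathway genes and all genes tested, by cell line. In THP-1 27.7% of the members were called higher against 6.3% of all genes, and in H1299 48.9% were called lower against 35.5%. The splits of the members in A549, H1299 and K562 move with the scaling.

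The direction of the counts depended on the scale. On log2(FPKM + 1), taken as deposited and without TMM scaling, limma called 24 members higher and 6 lower in A549, and 16 higher and 18 lower in H1299. These are 51.1 and 12.8%, and 34.0 and 38.3%, of the members. Of all genes tested, the same fit called 35.0% higher and 27.5% lower in A549, and 43.95 and 35.7% in H1299. It moved the median log2 fold change of all genes to 0.03 in A549 and to 0.07 in H1299. In K562 this fit called 16 members higher and 16 lower (34.0% each), against 34.2% of all genes higher and 27.9% lower. In H1299 the log2 fold change of a gene was related to its length (Spearman's rho 0.56 over 14621 genes, and 0.54 over the 47 members, as a description across genes that are not independent), whereas rho lay between -0.10 and 0.11 over all genes of the other lines. An offset for the trend with gene length gave 12 higher and 19 lower in H1299, 16 and 15 in A549, and 7 and 23 in K562. These are 25.5 and 40.4%, 34.0 and 31.9%, and 14.9 and 48.9% of the members. Of all genes the offset called 27.1% higher and 35.4% lower in H1299, 21.3 and 35.3% in A549, and 20.5 and 39.8% in K562. It moved the median log2 fold change of all genes to -0.12 in K562 and to -0.06 in A549. The same offset centred within each library, a choice made after that shift was seen, gave 13 and 18, 22 and 7, and 14 and 19. Of all genes this form called 30.9% higher and 31.5% lower in H1299, 26.55 and 29.1% in A549, and 29.1 and 28.2% in K562. The 3 libraries of one arm did not overlap with those of the other for 24 members in THP-1, 34 in K562, 35 in H1299 and 36 in A549. These are 51.1, 72.3, 74.5 and 76.6% of the 47, against 35.6, 65.6, 74.5 and 63.7% of all genes tested.

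**Figure D2:**
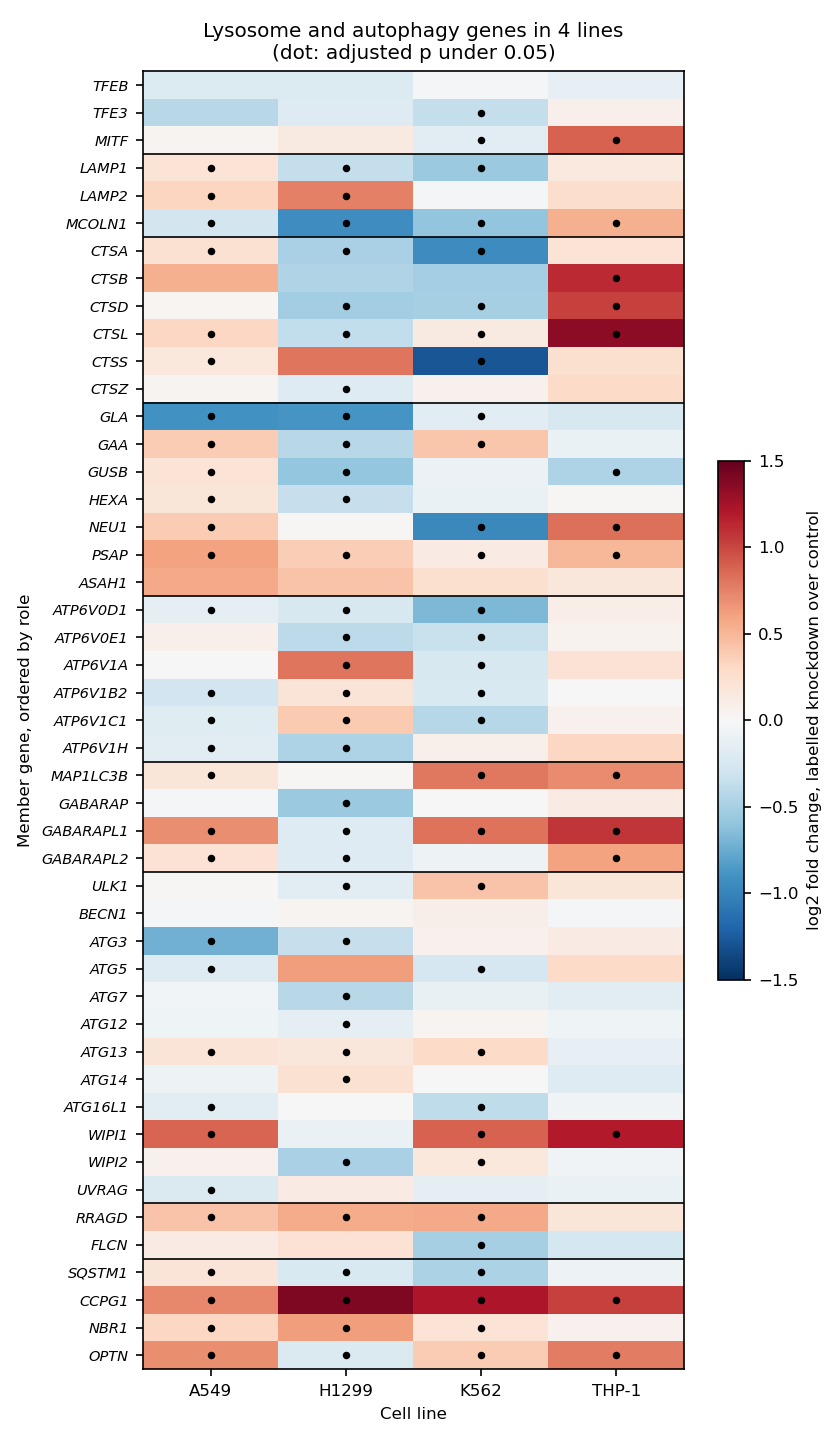
Log2 fold change (labelled knockdown over control, edgeR, in colour) of the 47 members in rows, grouped by role, in the 4 lines in columns. A dot marks an adjusted p under 0.05. PSAP and CCPG1 (2 rows) carry a dot and a value above 0 in all 4 lines, and 20 rows carry dots of opposite sign. The same counts were not made over all genes.

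Of the MiT/TFE factors, none was called in A549 or H1299. TFEB, which drives lysosomal biogenesis, stood at 30.4, 26.9 and 23.6 CPM in the THP-1 controls and at 22.4, 25.7 and 26.1 CPM in those labelled knockdown. It was 10.4, 9.84 and 9.98 against 8.72, 8.13 and 9.37 CPM in A549. H1299 gave 2.20, 2.78 and 1.77 against 1.91, 2.22 and 1.72 CPM, and K562 gave 4.07, 3.98 and 5.07 against 3.87, 4.96 and 4.14 CPM. The arms overlapped in every line but A549, and TFEB was called in none (adjusted p = 0.0592, 0.396, 0.942 and 0.571 in the order A549, H1299, K562, THP-1). Its log2 fold changes, given here and below ± the standard error, were -0.21 ± 0.09, -0.21 ± 0.21, -0.02 ± 0.16 and -0.12 ± 0.12. TFE3, its paralog, was 60.3, 66.3 and 64.8 CPM in the K562 controls and 48.4, 48.9 and 52.1 CPM in the libraries labelled knockdown, with no overlap. It fell there by 0.36 ± 0.06 on the log2 scale (adjusted p = 3.51e-04), although one fit over all 24 libraries gave -0.33 (adjusted p = 0.324). In A549 TFE3 was 149, 147 and 146 against 139, 126 and 65 CPM, in H1299 108, 106 and 106 against 59.4, 111 and 108 CPM and in THP-1 43.4, 37.6 and 35.6 against 49.6, 47.7 and 25.7 CPM. One labelled knockdown library lay far below the other two in each of these lines, and TFE3 passed the test in none of them. MITF, the melanocyte and osteoclast member of the family, was 3.38, 4.20 and 3.34 CPM in the THP-1 controls and 7.35, 6.83 and 5.99 CPM in the libraries labelled knockdown. Each labelled knockdown value was above each control, and MITF rose by 0.88 ± 0.15 on the log2 scale (adjusted p = 0.0109), a call lost without control replicate 1 or 3 (adjusted p = 0.0602 for each). MITF was 29, 28.8 and 26.5 against 24.6, 25.7 and 25.4 CPM in K562, where it fell by 0.16 ± 0.06 (adjusted p = 0.0419), a call lost without control replicate 1 or 2 or labelled knockdown replicate 1, 2 or 3 (adjusted p between 0.074 and 0.131) and with limma (-0.08, adjusted p = 0.203). It was 35.8, 35.7 and 36 against 34.4, 39.8 and 36.6 CPM in A549 and 0.948, 1.04 and 0.696 against 0.963, 0.888 and 1.10 CPM in H1299, with overlapping arms in both.

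The 3 lysosomal membrane proteins differed from line to line. LAMP1, a heavily glycosylated protein that lines the lysosomal membrane, was 133, 136 and 134 CPM in the A549 controls and 156, 158 and 152 CPM in the libraries labelled knockdown. In H1299 it was 172, 169 and 170.0 against 133, 132 and 135 CPM. K562 gave 118, 123 and 122 against 81.5, 79.5 and 85.7 CPM, and THP-1 gave 256, 252 and 247 against 279, 272 and 285 CPM. The arms were apart in all 4 lines, but in opposite directions. LAMP1 rose in A549 (0.21 ± 0.03, adjusted p = 9.95e-05), fell in H1299 (-0.36 ± 0.03, adjusted p = 3.13e-07) and K562 (-0.55 ± 0.04, adjusted p = 2.38e-06), and was not called in THP-1 (0.15 ± 0.08, adjusted p = 0.286). MCOLN1, the TRPML1 channel that releases calcium from lysosomes, was 34, 35.9 and 33.5 CPM in the H1299 controls and 16.8, 18.6 and 18.8 CPM in the libraries labelled knockdown. It was 23.7, 24.4 and 26.4 against 17.6, 16.2 and 15.5 CPM in K562. A549 gave 14.5, 12.9 and 14.8 against 11.2, 11.8 and 11.8 CPM, and THP-1 gave 9.59, 9.73 and 9.34 against 12, 14.1 and 15.4 CPM. It fell in A549 (-0.28 ± 0.08, adjusted p = 0.00774), H1299 (-0.93 ± 0.06, adjusted p = 6.84e-08) and K562 (-0.60 ± 0.07, adjusted p = 5.24e-05). In THP-1 it rose (0.53 ± 0.12, adjusted p = 0.027), a call lost without control replicate 1, 2 or 3 or labelled knockdown replicate 3 (adjusted p between 0.0905 and 0.117). LAMP2, the receptor of chaperone-mediated autophagy in its A form, was 78.9, 79.1 and 75 CPM in the H1299 controls and 127, 132 and 135 CPM in the libraries labelled knockdown. The H1299 arms lay far apart (log2 fold change 0.76 ± 0.04, adjusted p = 4.26e-09), yet with an offset for gene length the difference was 0.00 (adjusted p = 0.994), and 0.06 with the centred offset. LAMP2 also rose in A549, from 153, 158 and 155 to 185, 198 and 199.7 CPM (0.32 ± 0.03, adjusted p = 6.19e-06), and was not called in K562 (-0.02) or THP-1 (0.26).

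LAMP2 is spliced to 3 forms with different last exons, which set the tail that faces the cytoplasm. The last 30 coding bases of each form (GENCODE transcripts, chromosome X) are shown with the stop codon in capitals, since the share of the forms is what was compared.
LAMP2A, NM_002294: caccatcatgctggatatgagcaatttTAG
LAMP2B, NM_013995: aaaagttatgctggatatcagactctgTAA
LAMP2C, NM_001122606: aaaagtcgtactggttatcagtctgtgTAA
Form A stood at 8.63, 8.64 and 8.56 TPM (transcripts-per-million, scaled for length) in the H1299 controls and at 24.2, 26.5 and 26.8 TPM in the libraries labelled knockdown. Form B stood at 23.1, 22.3 and 21 and 41.8, 41.1 and 41.9 TPM. Both were higher in each labelled knockdown library. A rise in TPM is not particular to LAMP2 in H1299, where the members' summed TPM was 4332 ± 23.5 against 5237 ± 43.7 (SD, n = 3). LAMP1, called lower there on counts, lay between 124 and 129 TPM in the controls and between 134 and 137 TPM in the other arm. GABARAP was lower on both scales (469 ± 4.94 against 438 ± 3.66 TPM). Form A made up 28% ± 0.871 (SD, n = 3) of LAMP2 TPM in the controls and 38.2% ± 1.33 in the libraries labelled knockdown, with form B at 72% ± 0.871 and 61.6% ± 1.53. The shares did not overlap (exact two-sided permutation test, p = 0.1, the smallest that 3 against 3 allows). In A549 the share of form A was 24.3% ± 11.9 against 39.5% ± 10.5 (exact permutation p = 0.3) and the arms overlapped. In K562 it was 17.8% ± 8.32 against 13.8% ± 1.99 (exact permutation p = 0.7) and in THP-1 11.3% ± 6.44 against 8.77% ± 0.792 (exact permutation p = 0.9). These last differences, below 0 on average, turned to 0.677 and 1.13 percentage points when control replicate 2 of the line was left out. Form B was the main form in the controls of all 4 lines, at 87.8% ± 6.31 in THP-1, and form C was at or below 2.37% in every library. The estimates of the forms rest on the authors' transcript assembly, which has to divide reads among forms that share most of their length.

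**Figure D3:**
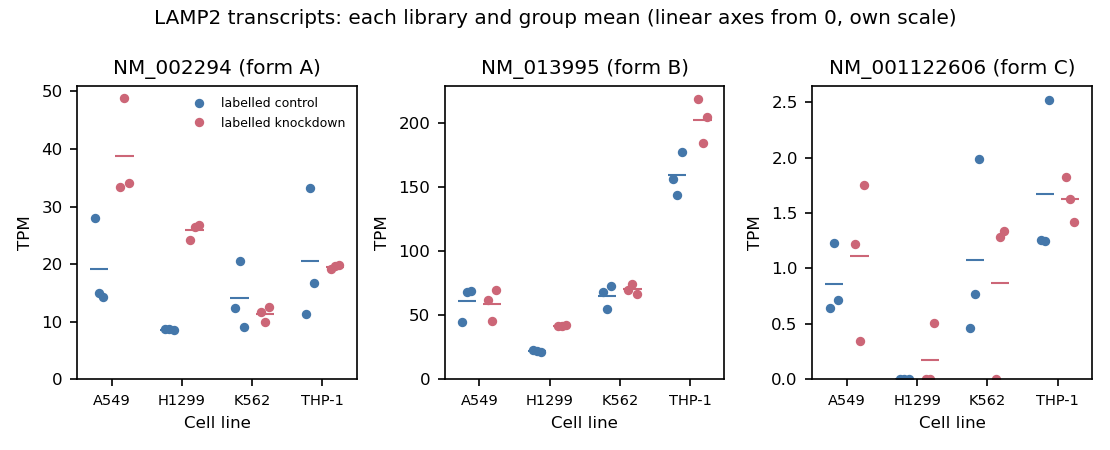
TPM of LAMP2 forms A, B and C (panels, each on its own linear scale from 0) in every library of the 4 lines; points are libraries and lines are means of 3. In H1299 form A lies between 8.56 and 8.64 TPM in the controls and between 24.2 and 26.8 TPM in the libraries labelled knockdown. The summed TPM of the 47 members is also higher in that arm of H1299.

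The cathepsins, proteases of the lysosomal lumen, had 3 of 6 members called higher and none lower in A549 and in THP-1, none higher and 4 lower in H1299, and 1 higher and 3 lower in K562. CTSD, the main aspartic protease of lysosomes, was 250.2, 226 and 227 CPM in the THP-1 controls and 452, 489 and 490.2 CPM in the libraries labelled knockdown. It was 576, 557 and 564 against 593, 573 and 569 CPM in A549. H1299 gave 224, 230.4 and 234 against 156, 156 and 165 CPM, and K562 gave 249, 253 and 277 against 182, 190.2 and 181 CPM. CTSD thus rose in THP-1 (1.02 ± 0.09, adjusted p = 7.34e-04), fell in H1299 (-0.53 ± 0.03, adjusted p = 3.40e-08) and K562 (-0.49 ± 0.05, adjusted p = 1.04e-05), and was not called in A549 (0.03 ± 0.02). In the annotation 41.7% of its exon bases also lie in a gene named AC068580.4 on the same strand. CTSL, a cysteine protease, was 47.7, 52.3 and 46.8 CPM in the THP-1 controls and 123, 137 and 113 CPM in the libraries labelled knockdown. It was 317, 318 and 354 against 394, 432 and 396 CPM in A549. K562 gave 176, 169.6 and 181 against 189, 184 and 207 CPM, and H1299 gave 78.4, 80.7 and 75.6 against 62.4, 63.9 and 55 CPM. CTSL rose in THP-1 (1.35 ± 0.10, adjusted p = 3.65e-04), where its log2 fold change was the highest of the members, and in A549 (0.31 ± 0.06, adjusted p = 0.00402). Its rise in K562 (0.14 ± 0.05, adjusted p = 0.0362) was lost without control replicate 1 or 2 or labelled knockdown replicate 1 or 3 (adjusted p between 0.0523 and 0.143), and its fall in H1299 (-0.37 ± 0.06, adjusted p = 1.17e-04) turned to 0.02 with the length offset and 0.08 with the centred one. CTSA, which protects NEU1 and beta-galactosidase in a complex, was 183, 185 and 187 CPM in the K562 controls and 98.6, 96 and 94 CPM in the libraries labelled knockdown. It was 325, 336 and 336 against 229.8, 241 and 239 CPM in H1299. A549 gave 114, 107 and 104 against 129, 127 and 123 CPM, and THP-1 gave 197, 187 and 172 against 210.1, 213 and 219 CPM. It fell in K562 (-0.94 ± 0.04, adjusted p = 2.17e-08) and H1299 (-0.49 ± 0.03, adjusted p = 2.15e-08), rose in A549 (0.22 ± 0.04, adjusted p = 3.72e-04), and was not called in THP-1 (0.21 ± 0.09, adjusted p = 0.179).

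CTSS, a cysteine protease of antigen-presenting cells, was 46.5, 45.8 and 46.5 CPM in the K562 controls and 19, 20.2 and 17.6 CPM in the libraries labelled knockdown. It fell there by 1.29 ± 0.06 on the log2 scale (adjusted p = 1.08e-07), the lowest value of the members in any line. The summed monocyte and macrophage markers were lower in the same K562 libraries, at 85.8 to 92.6 CPM against 161 to 166 CPM, and their part in this fall was not tested. In THP-1 CTSS was 176, 205 and 217 against 222, 266 and 221 CPM and was not called, and H1299 gave 0.313, 0.148 and 0.205 against 0.540, 0.164 and 0.462 CPM. Its call in A549 (0.16 ± 0.06, adjusted p = 0.0472) was lost with DESeq2 and without control replicate 1 or 3 or labelled knockdown replicate 1, 2 or 3 (adjusted p between 0.0685 and 0.153). CTSB, which acts both as an endopeptidase and as an exopeptidase, was 159, 80.0 and 86.2 CPM in the THP-1 controls and 231, 230.4 and 245 CPM in the libraries labelled knockdown. It rose in THP-1 (1.12 ± 0.26, adjusted p = 0.038), a call lost without control replicate 2 or 3 or labelled knockdown replicate 1, 2 or 3 (adjusted p between 0.0968 and 0.16) and with either length offset (adjusted p = 0.0531 and 0.0504). In the other lines its replicates were far apart, as in A549 with 356, 187 and 338 against 278, 498 and 497 CPM, and it was not called. CTSZ was called in H1299 alone, where 106, 104 and 100.3 CPM stood against 90.3, 87.9 and 92.7 CPM (-0.19 ± 0.04, adjusted p = 4.55e-04), and its sign there turned with the length offset (0.25, and 0.30 centred, both past the threshold).

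Among the 7 glycosidases and lipid hydrolases, counting the activator PSAP with them, 5 rose and 1 fell in A549, 1 rose and 4 fell in H1299, 2 rose and 2 fell in K562, and 2 rose and 1 fell in THP-1. PSAP, the precursor of the saposins that present lipids to hydrolases, was 1150.2, 1126 and 1103 CPM in the A549 controls and 1754, 1701 and 1694 CPM in the libraries labelled knockdown. It was 525, 547 and 547 against 695, 703 and 697 CPM in H1299. THP-1 gave 569, 563 and 551 against 776, 838 and 771 CPM, and K562 gave 881, 931 and 927 against 1006, 994 and 975 CPM. No arm overlapped the other, and PSAP was one of 2 members called higher in all 4 lines, although in K562 the length offset turned it to -0.02. The log2 fold changes were 0.61 ± 0.02 in A549, 0.37 ± 0.03 in H1299, 0.50 ± 0.08 in THP-1 and 0.12 ± 0.04 in K562 (adjusted p = 2.77e-10, 8.61e-08, 0.00893 and 0.0191). Its call in K562 was lost without labelled knockdown replicate 1 or 2 (adjusted p between 0.0672 and 0.074), and that in THP-1 without control replicate 2 or 3 (adjusted p between 0.0648 and 0.0703). NEU1, a sialidase, was 232, 243 and 251 CPM in the K562 controls and 129, 125 and 117 CPM in the libraries labelled knockdown. In THP-1 it was 40.6, 42.8 and 43.7 against 73.6, 78 and 74.4 CPM. A549 gave 20.8, 19.7 and 19.1 against 26.1, 25.4 and 26 CPM, and H1299 gave 60.9, 59.6 and 60.2 against 60.2, 62.2 and 60.1 CPM. NEU1 fell in K562 (-0.97 ± 0.05, adjusted p = 1.10e-07), rose in THP-1 (0.83 ± 0.08, adjusted p = 0.00117) and A549 (0.38 ± 0.06, adjusted p = 1.29e-04), and was not called in H1299 (0.01 ± 0.04). With the length offset its A549 value was 0.14 (adjusted p = 0.0748).

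GLA, the alpha-galactosidase that is deficient in Fabry disease, was 93.9, 88.8 and 84.5 CPM in the A549 controls and 47.3, 47.7 and 47.6 CPM in the libraries labelled knockdown, and 47.4, 45.9 and 46.2 against 24, 25.9 and 25.4 CPM in H1299. It fell in both (-0.91 ± 0.04 and -0.89 ± 0.05; adjusted p = 3.89e-09 and 1.03e-08). It also fell in K562, from 40.8, 41.8 and 42.4 to 38.3, 36.5 and 37 CPM (-0.16 ± 0.05, adjusted p = 0.0218), a call lost without control replicate 2 or labelled knockdown replicate 2 (adjusted p between 0.0631 and 0.0752), and was not called in THP-1 (-0.24 ± 0.10). GUSB, the beta-glucuronidase, was 173, 172 and 167 CPM in the THP-1 controls and 117, 130.2 and 123 CPM in the libraries labelled knockdown. It was the single member called lower in THP-1 (-0.46 ± 0.08, adjusted p = 0.0124), and that call was lost without control replicate 1, 2 or 3 or labelled knockdown replicate 1 (adjusted p between 0.0548 and 0.0747). GUSB also fell in H1299, from 103, 107 and 103 to 69.2, 72.9 and 67.2 CPM (-0.58 ± 0.04, adjusted p = 6.84e-08), and rose in A549 (0.20 ± 0.06, adjusted p = 0.0102). GAA, the acid glucosidase of lysosomal glycogen, rose in A549 (0.38 ± 0.04) and K562 (0.41 ± 0.07) and fell in H1299 (-0.42 ± 0.04; adjusted p = 1.45e-06, 6.26e-04 and 4.23e-06). HEXA, a subunit of the hexosaminidase that degrades gangliosides, rose in A549 (0.18 ± 0.03) and fell in H1299 (-0.35 ± 0.04; adjusted p = 4.77e-04 and 1.10e-05). ASAH1, the acid ceramidase, was called in no line, and its replicates were far apart, as in K562 with 168, 156 and 249 against 166, 257 and 253 CPM.

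The 6 proton pump subunits had none called higher and 4 lower in A549, 3 higher and 3 lower in H1299, none higher and 5 lower in K562, and none called in THP-1. ATP6V0D1, of the membrane sector, was 149, 158 and 161 CPM in the K562 controls and 100.5, 100.2 and 93 CPM in the libraries labelled knockdown (-0.67 ± 0.05, adjusted p = 1.03e-06). It also fell in A549 (-0.15 ± 0.05, adjusted p = 0.0241), a call lost without control replicate 1 or 2 or labelled knockdown replicate 2 or 3 (adjusted p between 0.0631 and 0.0919), and in H1299 (-0.25 ± 0.04, adjusted p = 8.08e-05), where the length offset turned it to 0.16 and the centred one to 0.22. ATP6V1A, the catalytic subunit, was 58.3, 58.1 and 57.9 CPM in the H1299 controls and 104, 101 and 99.6 CPM in the libraries labelled knockdown (0.81 ± 0.03, adjusted p = 1.41e-09), the second largest rise among the H1299 calls. It fell in K562, from 93.8, 90.8 and 91.5 to 78.3, 78.1 and 78 CPM (-0.24 ± 0.04, adjusted p = 4.61e-04). ATP6V1B2, the other nucleotide-binding subunit, was 58.8, 53.6 and 55.4 CPM in the A549 controls and 46.7, 44.8 and 45.6 CPM in the libraries labelled knockdown (-0.29 ± 0.05, adjusted p = 1.82e-04). It fell in K562 as well (-0.23 ± 0.03, adjusted p = 2.37e-04). In H1299 it rose (0.20 ± 0.06, adjusted p = 0.0171), a call lost without labelled knockdown replicate 2 or 3 (adjusted p between 0.0615 and 0.0656). ATP6V1C1 fell in A549 (-0.19 ± 0.04) and K562 (-0.43 ± 0.04) and rose in H1299 (0.39 ± 0.03), where the length offset gave -0.08 and the centred one -0.02. ATP6V0E1 fell in K562 (-0.34 ± 0.05) and in H1299 (-0.40 ± 0.04), with the H1299 sign turned by the length offset (0.14, and 0.20 centred). ATP6V1H fell in A549 (-0.17 ± 0.06) and H1299 (-0.47 ± 0.09), and both calls were lost with the centred length offset (-0.12 and -0.15, adjusted p = 0.119 and 0.205). The A549 call of ATP6V1H was also lost without control replicate 1 or 3 or labelled knockdown replicate 1, 2 or 3 (adjusted p between 0.055 and 0.149), and with limma (-0.09, adjusted p = 0.185).

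The ATG8 family, the ubiquitin-like proteins that coat the autophagosome, had 3 of 4 members called higher in A549 and in THP-1, 2 in K562 and none in H1299, where 3 were called lower on the count scale. GABARAPL1 was 40.1, 40.0 and 39.1 CPM in the A549 controls and 63.9, 64.7 and 65.3 CPM in the libraries labelled knockdown. It was 26.9, 27.5 and 24.9 against 48, 45.4 and 45.9 CPM in K562. THP-1 gave 1.64, 2.08 and 1.47 against 4.23, 3.70 and 2.98 CPM, and H1299 gave 180.1, 174 and 176 against 150.2, 156 and 158 CPM. GABARAPL1 rose in A549 (0.70 ± 0.04, adjusted p = 1.94e-08) and K562 (0.81 ± 0.06, adjusted p = 1.65e-06). Its rise in THP-1 (1.07 ± 0.21, adjusted p = 0.0192) was lost without control replicate 1 or 3 or labelled knockdown replicate 1 (adjusted p between 0.0638 and 0.0889), and its fall in H1299 (-0.19 ± 0.03, adjusted p = 1.30e-04) turned to 0.17 with the length offset and 0.23 with the centred one. MAP1LC3B, whose lipid-bound form is the usual marker of autophagosomes, was 125, 118 and 110.3 CPM in the K562 controls and 204, 202 and 204 CPM in the libraries labelled knockdown. It was 24.7, 28.7 and 30.1 against 39.4, 52.1 and 44.8 CPM in THP-1. A549 gave 85.2, 89.4 and 90.1 against 98, 103 and 101 CPM, and H1299 gave 188, 196 and 191 against 179.6, 198 and 202 CPM. It rose in K562 (0.79 ± 0.05, adjusted p = 4.56e-07) and A549 (0.19 ± 0.04, adjusted p = 8.80e-04), and in THP-1 (0.71 ± 0.13, adjusted p = 0.0138), the last call being lost without control replicate 1, 2 or 3 (adjusted p between 0.0528 and 0.0717). The H1299 arms overlapped. Its near-identical copy MAP1LC3B2 was at most 0.357 CPM in any library, but the sources used here do not say how reads were divided between the copies. GABARAP was 222, 223 and 220.4 CPM in the H1299 controls and 149, 152 and 152 CPM in the libraries labelled knockdown (-0.55 ± 0.03, adjusted p = 4.03e-09), whereas the length offset gave -0.02 and the centred one 0.04. In the annotation 30.5% of its exon bases also lie in AC120057.2 on the same strand. GABARAPL2 rose in A549 (0.21 ± 0.05) and THP-1 (0.60 ± 0.15), the latter lost without control replicate 1, 2 or 3 or labelled knockdown replicate 1 (adjusted p between 0.0599 and 0.16), and fell in H1299 (-0.20 ± 0.05), a sign that the length offsets turned (0.33 and 0.38).

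**Figure D4:**
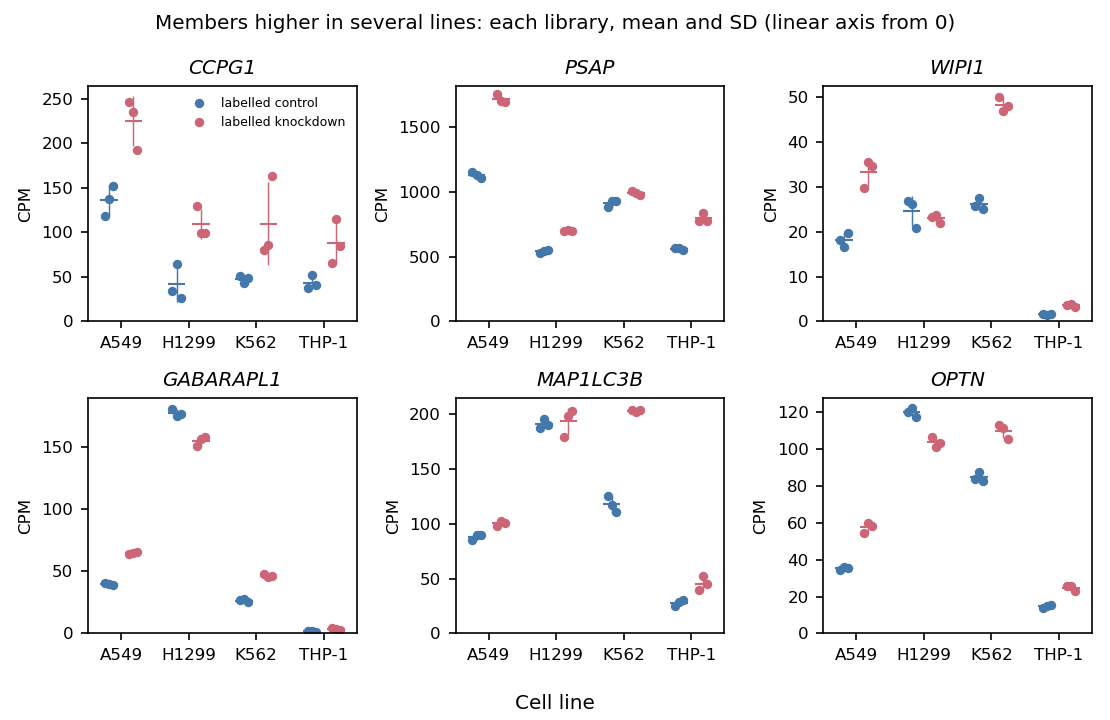
CPM of CCPG1, PSAP, WIPI1, GABARAPL1, MAP1LC3B and OPTN in every library of the 4 lines (points, with the mean as a line and the SD as a bar; linear axes from 0). In A549, K562 and THP-1 every library labelled knockdown lies above every control for all 6 genes, while in H1299 this holds for CCPG1 and PSAP alone. All 6 were called higher in A549, K562 and THP-1, so the contrast with H1299 follows in part from the genes drawn. ATG13, RRAGD and NBR1, called higher in A549, H1299 and K562, are not drawn.

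Of the 12 initiation and conjugation genes, 2 rose and 4 fell in A549, 2 rose and 5 fell in H1299, 4 rose and 2 fell in K562, and 1 rose in THP-1. That one was WIPI1, a phosphoinositide-binding protein of the forming autophagosome, at 1.74, 1.36 and 1.62 CPM in the THP-1 controls and 3.58, 3.93 and 3.28 CPM in the libraries labelled knockdown. It was 18.1, 16.6 and 19.7 against 29.7, 35.6 and 34.6 CPM in A549. K562 gave 25.7, 27.5 and 25.1 against 50.1, 46.8 and 48 CPM, and H1299 gave 27, 26.3 and 20.9 against 23.3, 23.8 and 21.9 CPM. WIPI1 rose in THP-1 (1.19 ± 0.18, adjusted p = 0.00642), A549 (0.88 ± 0.08, adjusted p = 2.58e-06) and K562 (0.89 ± 0.06, adjusted p = 8.25e-07), and the H1299 arms overlapped (-0.10 ± 0.09). In the annotation 24.3% of its exon bases also lie in ARSG on the opposite strand, and ARSG had a log2 fold change of 1.08 in A549, 1.83 in K562 and -0.27 in THP-1 (adjusted p = 8.34e-05, 1.14e-05 and 0.582). ATG3, the enzyme that couples ATG8 proteins to lipid, was 68.2, 67.9 and 69.9 CPM in the A549 controls and 42.8, 42.7 and 39.7 CPM in the libraries labelled knockdown (-0.72 ± 0.04, adjusted p = 3.62e-08). It also fell in H1299 (-0.35 ± 0.04, adjusted p = 5.21e-06). ATG13, of the ULK1 kinase complex, rose in A549 (0.20 ± 0.03), K562 (0.29 ± 0.05) and H1299 (0.17 ± 0.03), but in H1299 the length offsets turned it to -0.43 and -0.38, both past the threshold. The kinase ULK1 rose in K562 (0.42 ± 0.07, adjusted p = 5.42e-04) and fell in H1299 (-0.17 ± 0.04), a call that limma on FPKM did not give (-0.04, adjusted p = 0.345). ATG7, the activating enzyme, fell in H1299 (-0.42 ± 0.05, adjusted p = 1.59e-05). WIPI2 fell there too (-0.49 ± 0.03, adjusted p = 6.58e-08) and rose in K562 (0.16 ± 0.04, adjusted p = 0.00338), where the length offset gave a value just below 0 (-0.00). UVRAG, a partner of the BECN1 complex, was 25.8, 27.2 and 25.7 CPM in the A549 controls and 21.9, 23.5 and 22 CPM in the libraries labelled knockdown (-0.22 ± 0.06, adjusted p = 0.00627). ATG16L1 fell in A549 (-0.16 ± 0.04) and K562 (-0.38 ± 0.07), ATG5 in A549 (-0.19 ± 0.07) and K562 (-0.25 ± 0.08), and ATG12 in H1299 (-0.15 ± 0.04). The ATG5 call in A549 was lost without control replicate 1, 2 or 3 or labelled knockdown replicate 1 (adjusted p between 0.0512 and 0.133), and that in K562 without control replicate 1 or labelled knockdown replicate 2 (adjusted p between 0.0506 and 0.0514). With limma on FPKM neither ATG5 call was made (adjusted p = 0.208 and 0.0659), nor those of ATG16L1 in A549 (adjusted p = 0.0603) and of ATG12 (-0.02, adjusted p = 0.565). ATG14 rose in H1299 (0.23 ± 0.05), turned by the length offsets to -0.08 and -0.02. BECN1, the core of the lipid kinase complex, was called in no line, with log2 fold changes from -0.03 to 0.08.

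RRAGD, a Rag GTPase that carries the nutrient signal to mTORC1, was 53.2, 53.8 and 52.9 CPM in the H1299 controls and 75.4, 78.9 and 80.6 CPM in the libraries labelled knockdown. It was 33.7, 31.4 and 31.6 against 47.7, 48.1 and 47.4 CPM in K562 and 3.54, 2.99 and 3.19 against 3.77, 4.87 and 4.40 CPM in A549. It rose in H1299 (0.56 ± 0.04, adjusted p = 8.18e-08) and K562 (0.57 ± 0.05, adjusted p = 9.53e-06), and in A549 (0.43 ± 0.15, adjusted p = 0.027), where the call was lost without control replicate 2 or 3 or labelled knockdown replicate 2 or 3 (adjusted p between 0.0613 and 0.105). FLCN, the folliculin that acts on Rag GTPases, fell in K562 from 52.9, 55.1 and 57.9 to 39.8, 39.7 and 37.5 CPM (-0.50 ± 0.06, adjusted p = 2.96e-05) and was called in no other line.

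All 4 receptors were called in A549, H1299 and K562, where 55.6, 68.9 and 56.5% of all genes were called. CCPG1, a receptor for the endoplasmic reticulum, was 118, 137 and 153 CPM in the A549 controls and 246, 235 and 193 CPM in the libraries labelled knockdown. It was 34.7, 64.4 and 25.9 against 129.5, 99.9 and 99.8 CPM in H1299. K562 gave 50.7, 43.3 and 48.3 against 80.4, 85.5 and 164 CPM, and THP-1 gave 37.7, 52 and 40.7 against 65.9, 115 and 85.2 CPM. The arms did not overlap in any line, though the H1299 controls alone ran from 25.9 to 64.4 CPM. CCPG1 rose in all 4 lines, by 1.03 ± 0.21 in THP-1, 1.21 ± 0.34 in K562, 1.40 ± 0.41 in H1299 and 0.72 ± 0.15 in A549 (adjusted p = 0.0257, 0.0408, 0.039 and 0.015). Each of these calls was lost on leaving out 1 library. The A549 call was lost without control replicate 2 or labelled knockdown replicate 1 or 2 (adjusted p between 0.0517 and 0.0555), and the H1299 call without control replicate 1 or 3 or labelled knockdown replicate 1, 2 or 3 (adjusted p between 0.0739 and 0.12). The K562 call was lost without control replicate 1, 2 or 3 or labelled knockdown replicate 2 (adjusted p between 0.06 and 0.125), and the THP-1 call without control replicate 1 or 3 or labelled knockdown replicate 3 (adjusted p between 0.0717 and 0.113). With the length offset H1299 gave 0.76 (adjusted p = 0.187). OPTN, a receptor for ubiquitinated mitochondria and bacteria, was 34.3, 36.1 and 35.7 CPM in the A549 controls and 54.7, 59.7 and 58.1 CPM in the libraries labelled knockdown. It was 13.6, 14.9 and 15.3 against 25.8, 25.5 and 23.2 CPM in THP-1. K562 gave 83.7, 87.9 and 82.6 against 113, 111 and 106 CPM, and H1299 gave 120.4, 122 and 118 against 107, 101 and 103 CPM. It rose in A549 (0.70 ± 0.05, adjusted p = 1.12e-07), K562 (0.38 ± 0.04, adjusted p = 4.50e-05) and THP-1 (0.76 ± 0.10, adjusted p = 0.00343) and fell in H1299 (-0.21 ± 0.03, adjusted p = 1.49e-04). NBR1, a receptor of ubiquitinated aggregates, was 128, 121 and 127 CPM in the H1299 controls and 195, 196 and 189 CPM in the libraries labelled knockdown (0.63 ± 0.03, adjusted p = 8.41e-09). It also rose in A549 (0.30 ± 0.03) and K562 (0.21 ± 0.04), the latter call being lost with the length offset (0.04, adjusted p = 0.414). SQSTM1, the receptor p62, rose in A549, from 673, 665 and 652 to 782, 747 and 745 CPM (0.19 ± 0.02), and fell in H1299 (-0.22 ± 0.02) and in K562, from 353, 357 and 373 to 263, 263 and 256 CPM (-0.47 ± 0.04; adjusted p = 3.30e-05, 4.13e-06 and 2.83e-06).

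Across lines, 10 members were called higher in at least 3 lines (CTSL, PSAP, MAP1LC3B, GABARAPL1, ATG13, WIPI1, RRAGD, CCPG1, NBR1 and OPTN), with ATG13 in H1299 turned by the length offsets. Called lower in at least 3 were MCOLN1, GLA and ATP6V0D1, with the last turned in H1299. One fit over all 24 libraries lost 16 of the calls made line by line (adjusted p from 0.0506 to 0.600): TFE3, MITF, CTSL, GLA and ATG5 in K562, CTSS, ATP6V0D1, ATP6V1H, GABARAPL2, ATG5, ATG16L1 and CCPG1 in A549, and GABARAPL1, GABARAPL2, ULK1 and ATG12 in H1299. Limma on log2(FPKM + 1) lost 11 (adjusted p from 0.0603 to 0.565): MITF and ATG5 in K562, ATP6V0D1, ATP6V1H, ATG5 and ATG16L1 in A549, and CTSZ, GABARAPL1, GABARAPL2, ULK1 and ATG12 in H1299. The length offset, beside the turns and losses given with the genes, lost CTSL, ATG13 and CCPG1 in K562, CTSS, ATG13 and RRAGD in A549, and CCPG1 in THP-1. Calls of opposite sign in different lines were made for 20 members, and TFEB, ASAH1 and BECN1 were called in none. These counts over lines were not made for all genes, of which 55.6, 68.9 and 56.5% were called in A549, H1299 and K562. Such patterns are therefore not read as a trait of the members. In one edgeR model of all 24 libraries, the average of the 4 log2 fold changes passed the threshold in 30 members, 19 higher and 11 lower (40.4 and 23.4%), against 50.1% of 16797 genes, 28.9% higher and 21.2% lower. The largest averages were those of CCPG1 (1.12 ± 0.15, adjusted p = 3.14e-06), WIPI1 (0.74 ± 0.05, adjusted p = 1.02e-09) and GABARAPL1 (0.62 ± 0.05, adjusted p = 3.09e-09), and the lowest was that of GLA (-0.52 ± 0.03, adjusted p = 1.09e-10). With the length offset this split was 11 higher and 22 lower, and the median average of all genes went from 0.08 to -0.06. The difference between lines itself, tested as an interaction of 3 degrees of freedom, passed in 41 of 47 members, against 64.9% of all genes. The 6 members in which it did not pass were TFEB, TFE3, ASAH1, ATG12, BECN1 and CCPG1. The smallest adjusted interaction p-values were those of NEU1 (1.98e-13), CTSD (2.74e-12), CTSA (2.68e-11), LAMP1 (1.12e-10) and CTSL (1.11e-09).

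Of these 5, NEU1, CTSD, CTSA and LAMP1 are among the 9 genes whose promoter windows are printed above. This holds for that cut alone. Of the next smallest adjusted interaction p-values, OPTN (4.91e-09) held no match, ATP6V1A (2.10e-08) had no entry to search and MCOLN1 (3.25e-08) held a match. In A549 4 of the 9 were called higher (NEU1, CTSA, LAMP1 and GAA) and 3 lower (MCOLN1, ATP6V0D1 and ATG3). In H1299 1 was called higher (ATG14), NEU1 was not called and the other 7 were called lower, although the length offsets turned ATG14 and ATP6V0D1 there. In K562 the 9 genes split into 6 called lower (NEU1, CTSD, CTSA, LAMP1, MCOLN1 and ATP6V0D1), 1 called higher (GAA) and 2 not called (ATG3 and ATG14). In THP-1 NEU1, CTSD and MCOLN1 were called higher and the other 6 were not called. Of all genes tested, 6.3% were called higher and 3.93% lower in THP-1, and 28.9 and 27.5% in K562. In A549 these shares were 27.2 and 28.4%, and in H1299 33.4 and 35.5%. The 9 were chosen by their promoter letters, with the calls already known, and these counts are a description.

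**Figure D5:**
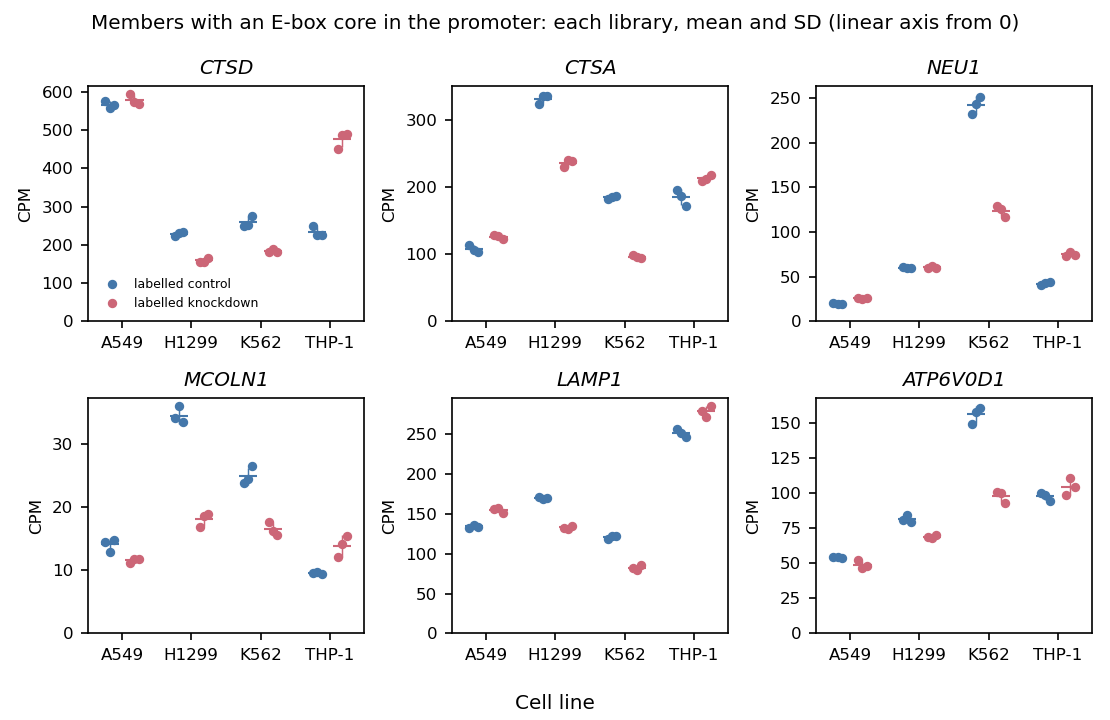
CPM of CTSD, CTSA, NEU1, MCOLN1, LAMP1 and ATP6V0D1, members with CACGTG in the RefSeq promoter, in every library of the 4 lines (points, with the mean as a line and the SD as a bar; linear axes from 0). In K562 each library labelled knockdown lies below each control for all 6 genes, and in THP-1 NEU1 lies between 40.6 and 43.7 CPM in the controls and between 73.6 and 78.0 CPM in the other arm. These 6 are the genes, of the 9 with a match, that were called lower in K562, so their shared fall there follows from the choice of genes. GAA, called higher in K562, and ATG3 and ATG14, not called there, are not drawn.

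The order of levels among members, compared per length as TPM in the control libraries, was not the same in the lines. PSAP was the highest in A549 (944 ± 17 TPM, SD, n = 3) and K562 (689 ± 27.2 TPM). In H1299 GABARAP (469 ± 4.94 TPM) and SQSTM1 (465 ± 7.33 TPM) led and lay within their spread of each other. CTSZ led in THP-1 (576 ± 30.3 TPM), ahead of PSAP (455 ± 2.41 TPM). MITF was the lowest member in THP-1 (1.81 ± 0.206 TPM), TFEB in K562 (4.26 ± 0.581 TPM), CTSS in H1299 (0.101 ± 0.0404 TPM) and RRAGD in A549 (1.59 ± 0.134 TPM).

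The wider pathway was read from 151 other genes in 6 lists. Of those tested, 55 rose and 23 fell of 149 in A549 (36.9 and 15.4%, against 27.2 and 28.4% of all genes). In H1299 47 rose and 62 fell of 145 (32.4 and 42.8%, against 33.4 and 35.5%). In K562 34 rose and 60 fell of 142 (23.9 and 42.3%, against 28.9 and 27.5%). In THP-1 16 rose and 5 fell of 148 (10.8 and 3.38%, against 6.3 and 3.93%). The median log2 fold changes of these other genes were 0.07, -0.05, -0.11 and 0.10. These splits moved with the scale. With the length offset they were 45 higher and 38 lower in A549, 63 and 55 in H1299, 23 and 82 in K562, and 20 and 20 in THP-1. Of all genes that offset called 21.3% higher and 35.3% lower in A549, and 27.1 and 35.4% in H1299. In K562 it called 20.5 and 39.8% of all genes, and in THP-1 7.3 and 11.2%. The centred offset gave 69 and 47 in H1299 (30.9 and 31.5% of all genes), and limma on log2(FPKM + 1) gave 69 and 15 in A549 (35.0 and 27.5% of all genes). Other lysosomal enzymes had 22 higher and 4 lower of 38 in A549, and 11 higher and 2 lower of 37 in THP-1. Other lysosomal membrane and transport proteins had 2 higher and 16 lower of 25 in K562. Other autophagy machinery had none higher and 1 lower of 32 in THP-1, and 12 of 32 in each direction in H1299. In A549 the enzyme CTSF was 41.3, 41.2 and 40.7 CPM in the controls and 76.2, 73.3 and 73.7 CPM in the libraries labelled knockdown (0.86 ± 0.04), and MAP1LC3A (0.89 ± 0.13) and the sialic acid exporter SLC17A5 (0.85 ± 0.08) rose as well. CTSV (-1.05 ± 0.13), GGH (-0.50 ± 0.06) and the pump subunit ATP6V0A2 (-0.50 ± 0.05) fell there. In H1299 WDFY3, the ALFY adaptor of aggregates, was 34.6, 31.1 and 35.2 CPM in the controls and 119, 114 and 116 CPM in the libraries labelled knockdown (1.79 ± 0.05). ATG2B (1.45 ± 0.03) and FNIP2 (1.36 ± 0.08) rose, and ATG16L2 (-1.38 ± 0.10), IDUA (-1.08 ± 0.12) and TCIRG1 (-0.97 ± 0.04) fell. In K562 CTSF (1.19 ± 0.07), the receptor CALCOCO2 (1.08 ± 0.03) and ACP5 (0.95 ± 0.09) rose, and the ganglioside activator GM2A (-1.07 ± 0.04), STBD1 (adjusted p = 9.00e-04) and ATG16L2 (-0.82 ± 0.07) fell. In THP-1 GPNMB was 12.6, 14.1 and 11.2 CPM in the controls and 30.6, 30.4 and 33.8 CPM in the libraries labelled knockdown (1.32 ± 0.11, adjusted p = 6.89e-04). IFI30, a lysosomal thiol reductase (1.10 ± 0.12), and the receptor RETREG1 (1.08 ± 0.15) also rose, while ATG16L2 (-0.89 ± 0.09), IDUA (-0.83 ± 0.13) and the mitophagy receptor BNIP3L (-0.62 ± 0.13) fell, the last call being lost without control replicate 1, 2 or 3 or labelled knockdown replicate 1 or 3 (adjusted p between 0.0629 and 0.106). ATG16L2 was thus among the 3 lowest called genes in H1299, K562 and THP-1. One fit over all 24 libraries lost the calls of RETREG1 in THP-1 and of ACP5 in K562 (adjusted p = 0.093 and 0.119).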

How the data were processed

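RNA of 24 libraries (4 lines, 2 arms, 3 each) was sequenced as paired ends from stranded libraries, per the labels' protocols. The submitters' processing notes name HISAT2, StringTie and build hg19; versions, the strand setting of the counting and the handling of reads shared by several genes are not given in the sources used here. The authors deposited estimated counts per gene and transcript, which need not be whole and heap near multiples of 4, together with deposited FPKM per gene and transcript and deposited TPM per transcript. Estimated counts were rounded. In the GENCODE annotation, 19 of 47 members share exon bases with a gene on the opposite strand, 7 of them over 10% of their exon bases (ATG7, BECN1, CTSA, CTSD, HEXA, SQSTM1 and WIPI1), and 5 with one on the same strand (CTSD, GABARAP, FLCN, HEXA and MCOLN1). Such values are uncertain.

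Within each line, genes were filtered with filterByExpr, scaled by TMM and tested with edgeR 4.0.16 (robust quasi-likelihood; R 4.3.3), and p-values were adjusted by the Benjamini-Hochberg method over all genes tested. A gene was called at an adjusted p under 0.05, and errors of log2 fold changes are standard errors. CPM are on TMM-scaled library sizes within a line, and TPM per gene is the sum over transcripts. Average and interaction come from a model of 8 group means over 24 libraries. Alternatives used DESeq2 1.42.0, limma 3.58.1 on log2(FPKM + 1), other filters, a replicate block, and an offset per library for the trend with gene length (natural spline, 4 degrees of freedom); its centred form was added after seeing the data. The fits were tried on simulated counts in which few genes changed, equally in both directions. That setting does not cover lines in which most genes were called, or a trend with gene length, so it does not vouch for the calls made here. Replicates differed beyond sampling noise (chi-square per degree of freedom from 8.27 to 69.5 over 24 pairs). Each was counted as a library, but this check cannot tell separate cultures from repeat libraries of the same culture.

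The members and lists were chosen with earlier results of these data known. The 2 motifs were chosen after member counts for 5 spellings had been seen. Values in every library are given for the MiT/TFE factors, for the 5 called members with the highest and the 5 with the lowest log2 fold change per line, for those called alike in 4 lines and for the 5 smallest interaction p-values; for some others they are added as context. Of the other pathway genes, the 3 highest and 3 lowest called genes per line with at least 5 CPM are named.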

Additional observations from a re-analysis of the deposited data

Results flagged for a closer look

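The change between arms differed between the 4 lines in 41 of the 47 members, by an interaction test in edgeR over all 24 libraries. The 5 members with the smallest adjusted interaction p-values were NEU1 (1.98e-13), CTSD (2.74e-12), CTSA (2.68e-11), LAMP1 (1.12e-10) and CTSL (1.11e-09), and only these 5 of the 41 are listed singly here, by the rule for named genes. NEU1 was lower in K562 and higher in A549 and THP-1, CTSD lower in H1299 and K562 and higher in THP-1, and CTSA and LAMP1 lower in H1299 and K562 and higher in A549. CTSL was higher in A549, K562 and THP-1, and its fall in H1299 turned with either length offset. With 64.9% of all genes past the same test, a differing response was common in these data. The share was larger among the members (41 of 47), and that difference in shares was not tested.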

How the results depend on the processing

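Leaving out 1 library at a time gave 25 to 28 called members in A549 (30 with all), 31 to 34 in H1299, 26 to 30 in K562, 5 to 18 in THP-1, 29 to 33 for the average and 40 to 43 for the interaction, and 70 to 81, 105 to 108, 85 to 93 and 9 to 49 other pathway genes in A549, H1299, K562 and THP-1. In THP-1, 14 members were called with all libraries, 7, 8 and 5 without control replicate 1, 2 or 3, 10, 18 and 11 without labelled knockdown replicate 1, 2 or 3, and 22 when all 24 libraries shared one fit. Its 21 other pathway genes became 33 with DESeq2, 54 with all 24 libraries, 40 with the length offset and 37 with the centred offset, and without control replicate 1, 2 or 3 they became 10, 11 and 9, and 49 without labelled knockdown replicate 2. The share of all genes called in THP-1 moved as well. It went from 10.2% to 16.1, 22.4, 18.5 and 17.4% in the first 4 of these settings. Without control replicate 1, 2 or 3 it was 4.25, 3.89 and 4.05%, and without labelled knockdown replicate 2 it was 23.1%. The other member counts, and the other pathway counts of the other lines, stayed within 1.5 times of the reported ones under the alternatives run. Of the alternatives run, the length offset moved the median of all genes by over 0.1, in K562 (by -0.14, to -0.12) and for the average (by -0.14, to -0.06), and no other did.

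In H1299 the length offset turned CTSL to 0.025, CTSZ to 0.25, ATP6V0D1 to 0.16, ATP6V0E1 to 0.14, ATP6V1C1 to -0.080, GABARAPL1 to 0.17, GABARAPL2 to 0.33, ATG13 to -0.43, ATG14 to -0.076 and MITF to -0.40. The centred offset turned them to 0.082, 0.30, 0.22, 0.20, -0.023, 0.23, 0.38, -0.38, -0.019 and -0.35, and GABARAP to 0.04 and TFEB to 0.012. In K562 the length offset turned PSAP to -0.021 and WIPI2 to -0.0027. For factors that were not called, MITF in A549 turned to -0.11 and -0.033 with the length offset and its centred form. TFEB in K562 turned to 0.017 with all 24 libraries, to 0.0004 with at least 1 CPM in 3 libraries and to 0.041, 0.026 and 0.026 with limma. Over the left-out libraries TFEB in K562 ran from -0.13 to 0.10, TFE3 from -0.34 to 0.044 in H1299 and from -0.083 to 0.32 in THP-1, and MITF from -0.019 to 0.091 in A549 and from -0.010 to 0.26 in H1299. The difference in the share of LAMP2 form A ran from 9.24 to 22.2 percentage points in A549, 9.67 to 10.9 in H1299, -7.39 to 0.677 in K562 and -4.83 to 1.13 in THP-1. The cause of these turns was not tested beyond the offsets themselves.

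The replicate block, by the number in the titles, gave 29, 31, 29 and 14 called members in A549, H1299, K562 and THP-1. The numbers do not pair the libraries: correlations of same-numbered deviations ran from -0.045 to 0.040 over 12 pairs. Calls kept in every alternative, left-out libraries included, numbered 19 of 30 in A549, 17 of 33 in H1299, 21 of 31 in K562 and 5 of 14 in THP-1 (CTSD, CTSL, NEU1, WIPI1 and OPTN).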
